A study of Homo sapiens with 2 samples.

Results

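The 43 genes described here encode proteins of ribosome biogenesis and nucleolar growth. They were taken by symbol from the 36601 genes of the features table, and all 43 were found. PC9, an established line from a human lung adenocarcinoma, was put through a pooled CRISPR screen that was read out by droplet 3′ single-cell RNA sequencing with direct capture of the single guide RNA (sgRNA) in each cell. Cells were grouped by the target of their sgRNA into ATF4, MYC, PGAM1, CTNNB1, JUN, CTCF and Non-Targeting. Every group, Non-Targeting included, carried the same Cas9 background, received a lentiviral sgRNA with polybrene at 8 ug/ml and went through selection in 1 ug/mL puromycin. The labels call the screen a knockout screen and also say that the cells expressed dCas9, the form of Cas9 that does not cut, so whether the targets were cut or repressed cannot be told from them. All cells came from 1 culture and 1 gene expression library, and the sgRNAs stand in for replicates. The p-values below therefore measure only the spread between sgRNAs of that culture. That spread was estimated in 1 fit over the sgRNAs of all groups, not from the 2 groups compared alone.

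Ribosomes are built in the nucleolus. RNA polymerase I transcribes a long precursor there, small nucleolar ribonucleoproteins (snoRNPs) modify it, and large sets of assembly factors cut it and fold it with ribosomal proteins into the small and the large subunit. MYC is known as a transcriptional activator of many of these genes, through the DNA sequence CACGTG, called an E-box. ATF4 drives gene expression in the integrated stress response and in amino acid supply, and with C/EBP partners it is known to bind elements built on TGATGNAA.

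After filtering, 10142 cells were kept, with a median of 12239.5 unique molecular identifiers (UMIs) of genes, and 5556 of them (54.8%) were assigned to 1 sgRNA. The tests used the 34 sgRNAs with at least 20 cells, 5530 cells in all: 6 sgRNAs of ATF4, 2 of MYC, 4 of PGAM1, 6 each of CTNNB1, JUN and CTCF, and 4 Non-Targeting sgRNAs. UMIs were summed per sgRNA. The sums ranged from 628639 to 3371762 UMIs for ATF4 sgRNAs, were 267726 and 484643 UMIs for the MYC sgRNAs, and ranged from 1038200 to 3869915 UMIs for Non-Targeting sgRNAs. Levels are UMIs per 1000000 UMIs of an sgRNA (CPM), a share, so a change in the total RNA of a cell cannot be seen in them. The 3′ method counts 1 tag per molecule, so CPM values of different genes can be compared without scaling by length. The epithelial keratins KRT8, KRT18 and KRT19 had a UMI in more than 99% of cells. Of the fibroblast genes, COL1A2 and DCN had no UMI and COL1A1 had 254 UMIs, in 2.46% of cells.

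The targeted transcripts were examined first. ATF4 had 266.3, 273.6, 246.5, 332.2, 258.1 and 186.2 CPM with ATF4 sgRNAs 1 to 6, against 376.0, 372.2, 342.6 and 355.4 CPM with Non-Targeting sgRNAs 1 to 4. Every ATF4 sgRNA was below every Non-Targeting sgRNA, with a log2 fold change of -0.51 ± 0.07 (SE) and an edgeR adjusted p of 6.6e-07. The MYC transcript had 141.9 and 86.7 CPM with MYC sgRNAs 2 and 4, against 63.1, 72.2, 72.6 and 71.3 CPM with Non-Targeting sgRNAs. It was not lower with MYC sgRNAs: the log2 fold change was 0.62 ± 0.25 and the edgeR adjusted p was 0.48. Whether MYC was cut or repressed cannot be told from the labels. A knockout need not lower its transcript, whereas repression acts by lowering it. These files hold no measure of MYC protein, and whether the MYC sgRNAs acted was not tested. Results for MYC sgRNAs below are results for cells in which that sgRNA was captured.

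Stretches of 5 member promoters are shown because the members differ in whether these known binding sequences lie near their start. RefSeq promoter windows, from 250 bases before to 50 after the annotated transcription start in GRCh38.p14, were matched by symbol to 36 of the 43 members. The 4 stretches with an E-box belong to members that passed a test below, with CACGTG in capitals. RSL24D1 was chosen after its values were seen, with the 8 bases in capitals that match TGATGNAA on the other strand. Each stretch spans or lies just after the start of the first exon and is written 5′ to 3′ on the strand of the gene.
ODC1, chr2:10447993-10448262, minus strand: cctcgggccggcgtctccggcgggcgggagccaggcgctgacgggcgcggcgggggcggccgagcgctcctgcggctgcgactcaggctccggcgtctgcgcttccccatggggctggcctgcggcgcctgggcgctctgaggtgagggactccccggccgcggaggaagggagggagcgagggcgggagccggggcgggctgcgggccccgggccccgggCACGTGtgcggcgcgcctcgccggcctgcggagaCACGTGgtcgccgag
FBL, chr19:39846360-39846479, minus strand: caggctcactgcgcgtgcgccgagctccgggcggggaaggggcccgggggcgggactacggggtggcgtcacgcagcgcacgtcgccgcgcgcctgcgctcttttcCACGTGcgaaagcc
MYBBP1A, chr17:4555340-4555369, minus strand: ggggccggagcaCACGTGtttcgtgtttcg
NME1, chr17:51153581-51153608, plus strand: agtgctgcgaacCACGTGggtcccgggc
RSL24D1, chr15:55196932-55197041, minus strand: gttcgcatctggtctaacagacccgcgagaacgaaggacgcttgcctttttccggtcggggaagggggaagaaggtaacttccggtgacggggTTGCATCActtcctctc

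CACGTG, which reads the same on both strands, lay in the window of 18 of the 36 members. It lay in the windows of 8.77% of all 27305 genes with a window, of 12.8% of the 8922 tested genes that are not members, and of 32.7% of 110 other ribosome biogenesis genes. The members held 21 matches, and 17 of them lay between base -31 and base 48 relative to the start. ODC1, which makes the polyamine putrescine, had 2 matches, at bases -29 and 6. TGATGNAA, searched on both strands, was in the window of 1 of the 36 members, RSL24D1, a share of 2.78% against 4.46% of all genes and 2.58% of tested genes. A match is a run of letters and not a measured binding site.

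**Figure D1:**
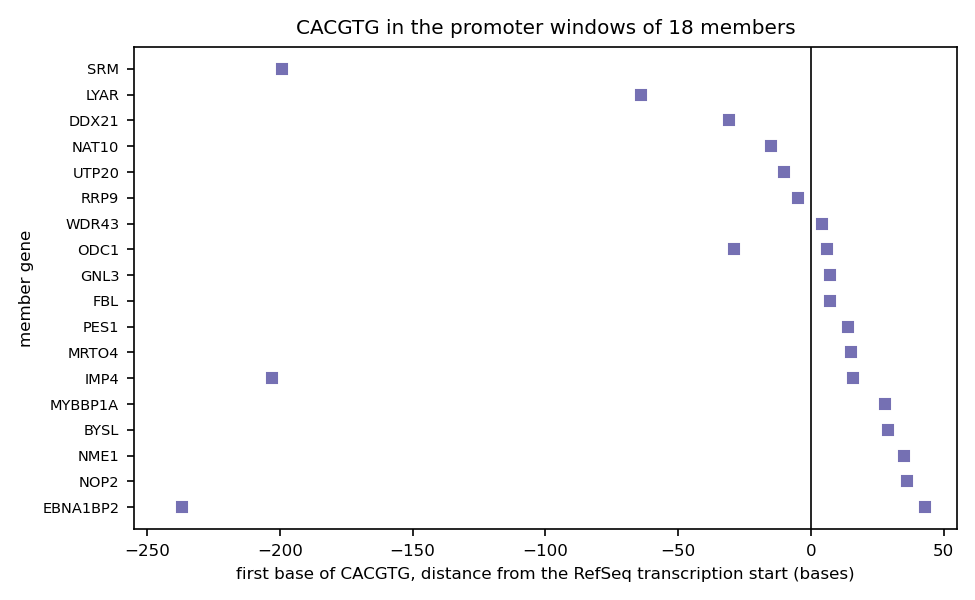
Position of each CACGTG match (squares) in the promoter windows of 18 members, as the distance of its first base from the annotated transcription start in bases. The matches of most members lie close to the start, and SRM, IMP4 and EBNA1BP2 each have 1 match far upstream of it.

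Levels of the members spanned a wide range. Over all kept cells NPM1, the abundant chaperone nucleophosmin, had 2813 CPM and a UMI in 99.9% of cells, and NCL, nucleolin, had 524 CPM and a UMI in 96.4% of cells. POLR1A, the largest subunit of RNA polymerase I, was the lowest at 6.94 CPM with a UMI in 8.66% of cells. Because NPM1 alone gave a large part of the summed level, sums are given without it.

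In cells with ATF4 sgRNAs, 7 members rose and 1 fell against cells with Non-Targeting sgRNAs. All 43 members passed the filter on low counts and were tested. MYBBP1A, TAF1A, GPATCH4, ODC1, BOP1, PA2G4 and NME1 rose, by 1.17-fold (NME1) to 1.63-fold (MYBBP1A), and RSL24D1 fell 1.36-fold. The 7 members that rose are to be read against 0.605% of the 11570 tested genes that rose, and the 1 that fell against 1.15% that fell, in edgeR's quasi-likelihood test with Benjamini-Hochberg adjustment. The log2 fold change was above 0 in 34 members and below 0 in 9, with a median of 0.12, against a median of 0.0031 over all genes tested. At an unadjusted p under 0.05, 20 members were higher and 1 was lower, where the shares over all tested genes were 6.0% and 6.45%. The direction of this difference was known when the members were chosen.

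The number of members called depended on which sgRNAs and cells entered. It was 5 without Non-Targeting sgRNA 1, 5 without Non-Targeting sgRNA 4, 2 in G1-scored cells alone and 4 with CTNNB1 sgRNAs in place of Non-Targeting ones, and the 8 of the full comparison included all of those members. The median log2 fold change kept its sign, between 0.10 and 0.17, whichever ATF4 or Non-Targeting sgRNA was left out.

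**Figure D2:**
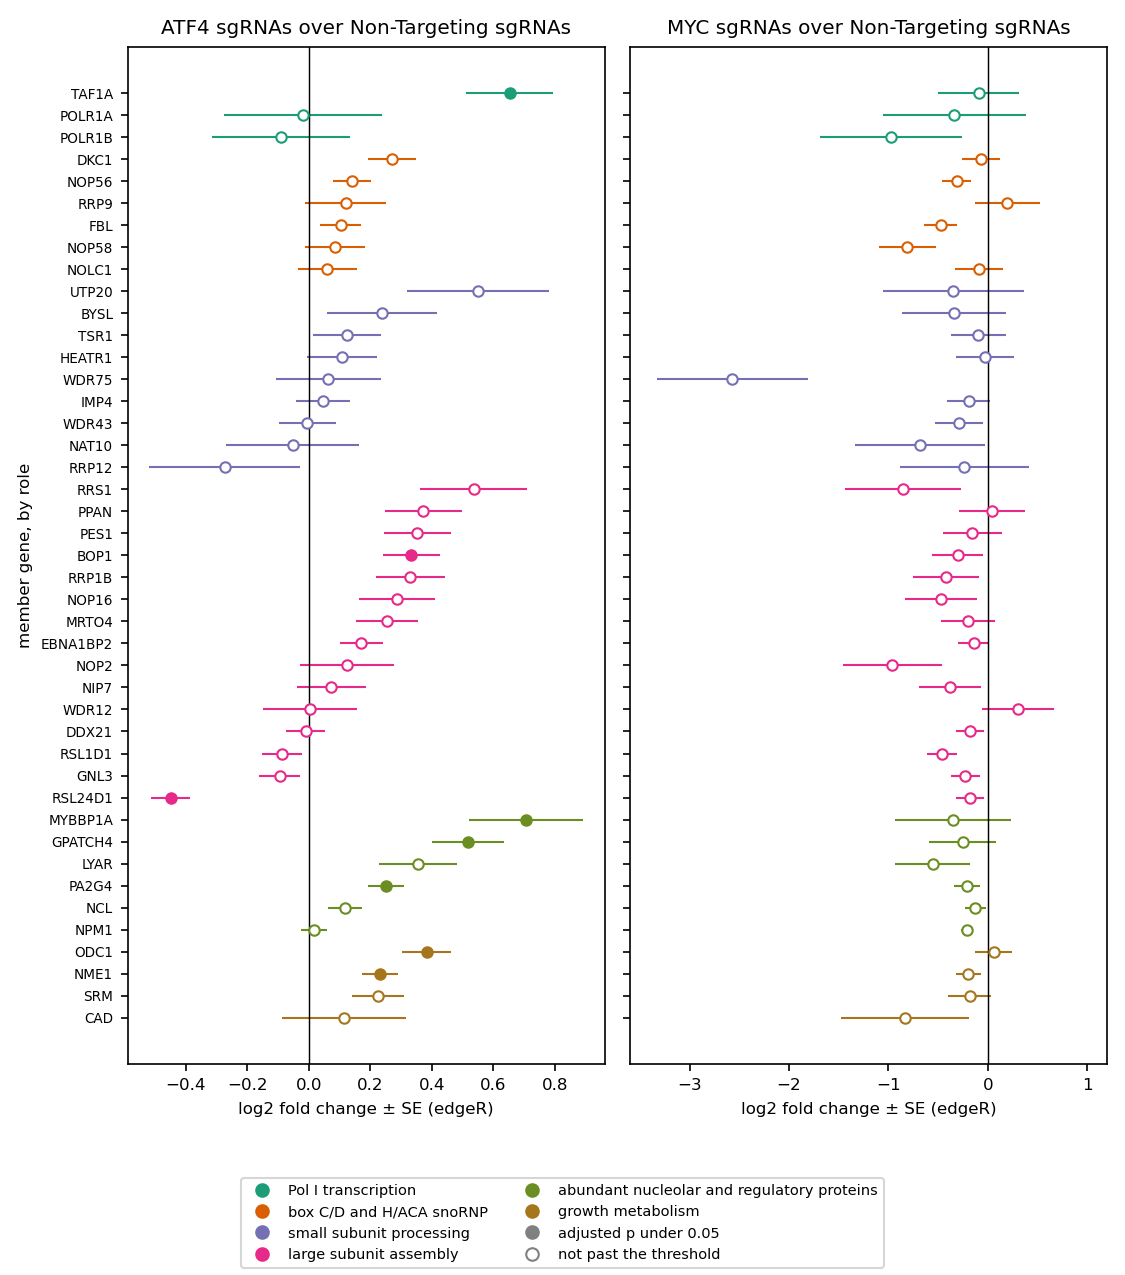
Log2 fold change (edgeR) of each of the 43 members in ATF4 (left) and MYC (right) sgRNA cells, each over Non-Targeting sgRNA cells. Members are grouped by role, and bars are the SE derived from edgeR's F statistic. Filled points passed an adjusted p of 0.05, the 2 panels have different axes, and the fitted value of WDR75 in MYC sgRNA cells rests on 2 UMIs.

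The first step, transcription by RNA polymerase I, had 3 members. TAF1A, a subunit of the SL1 factor that brings the polymerase to the promoter, ranged from 31.8 to 36.1 CPM with ATF4 sgRNAs (median 33.4), against 22.5, 19.1, 24.9 and 12.5 CPM with Non-Targeting sgRNAs. All 6 ATF4 sgRNAs were above all 4 Non-Targeting sgRNAs. The log2 fold change was 0.65 ± 0.14 (SE), with an edgeR adjusted p of 0.0028. TAF1A was also higher in cells of other targets than in Non-Targeting cells: it averaged 31.9 ± 8.46 CPM with 4 PGAM1 sgRNAs, 28.8 ± 4.47 CPM with 6 CTNNB1 sgRNAs and 28.7 ± 3.89 CPM with 6 JUN sgRNAs, against 19.8 ± 5.36 CPM (SD) with the 4 Non-Targeting sgRNAs. All of these comparisons share the Non-Targeting sgRNAs. TAF1A did not pass with ATF4 sgRNAs against CTNNB1 sgRNAs or in G1-scored cells. POLR1A and POLR1B, the 2 large subunits of the polymerase, had log2 fold changes of -0.019 and -0.090 with ATF4 sgRNAs.

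Small nucleolar RNAs guide 2′-O-methylation (box C/D) and pseudouridylation (box H/ACA) of the ribosomal RNA, and their protein partners catalyse these steps or hold the particles together. The 6 members here include RRP9, a protein of the U3 particle that takes part in cleavage, and NOLC1, a chaperone of snoRNPs. None of the 6 passed with ATF4 sgRNAs in edgeR's test, and all 6 had log2 fold changes above 0, from 0.061 for NOLC1 to 0.27 for DKC1, the pseudouridine synthase. DKC1 ranged from 116.4 to 134.3 CPM with ATF4 sgRNAs (median 125.2), against 105.2, 90.3, 108.9 and 90.5 CPM with Non-Targeting sgRNAs. These groups did not overlap, and the edgeR adjusted p was 0.055. DKC1 was called by DESeq2, and in edgeR with no filter on low counts, with the looser sgRNA rule, with the 2 groups fitted alone and with sgRNAs of at least 10 cells. NOP56, a box C/D core protein, had the highest control level of the group, at 182.3 ± 17.7 CPM with ATF4 sgRNAs and 164.6 ± 11.6 CPM with Non-Targeting sgRNAs (SD), and did not pass.

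The 9 members that process the small subunit precursor did not pass either. Their log2 fold changes with ATF4 sgRNAs ran from -0.27 for RRP12 to 0.55 for UTP20, with 6 above 0. UTP20 was read at low levels, 6.36 to 16.3 CPM with ATF4 sgRNAs against 5.78 to 8.95 CPM with Non-Targeting sgRNAs, and these overlapped. IMP4, which had the highest control level of this group, stood at 87.4 ± 9.55 CPM with ATF4 sgRNAs and 81.3 ± 5.97 CPM with Non-Targeting sgRNAs (SD).

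Large subunit assembly had 15 members, of which 1 rose, 1 fell and 11 had log2 fold changes above 0. BOP1, which with PES1 and WDR12 forms the PeBoW complex, ranged from 50.4 to 60.5 CPM with ATF4 sgRNAs (median 55.5), against 44.2, 37.3, 41.8 and 45.3 CPM with Non-Targeting sgRNAs. The groups did not overlap, the log2 fold change was 0.33 ± 0.09 and the edgeR adjusted p was 0.034. BOP1 did not pass without Non-Targeting sgRNA 1, 2 or 3 or without ATF4 sgRNA 1, 3 or 6, nor in DESeq2, with no filter on low counts, with the stricter or the looser sgRNA rule, in G1-scored cells or against CTNNB1 sgRNAs. The partners of BOP1 gave log2 fold changes of 0.35 (PES1, edgeR adjusted p = 0.074) and 0.0051 (WDR12). RRS1, needed to load the 5S particle, had 0.54 ± 0.17 with an edgeR adjusted p of 0.096, and PPAN, a pre-rRNA processing factor, had 0.37 ± 0.12 with an adjusted p of 0.11.

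RSL24D1 was the exception. It is the human counterpart of a yeast protein that holds the place of a ribosomal protein on the immature large subunit. It had 147.5, 128.8, 122.9, 146.5, 133.2 and 136.8 CPM with ATF4 sgRNAs 1 to 6, against 181.9, 172.3, 191.9 and 192.6 CPM with Non-Targeting sgRNAs. All 6 ATF4 sgRNAs were below all 4 Non-Targeting sgRNAs, with a log2 fold change of -0.45 ± 0.06 and an edgeR adjusted p of 1.1e-06. It passed under every alternative and with any 1 sgRNA left out. Its mean lay between 177.8 and 186.1 CPM with PGAM1, CTNNB1, JUN and CTCF sgRNAs. The MYC sgRNAs were split, with 209.2 CPM for sgRNA 2 and 138.2 CPM for sgRNA 4, which lay within the range of the ATF4 sgRNAs. GNL3, nucleostemin, and RSL1D1, another nucleolar protein, also had log2 fold changes below 0, of -0.094 and -0.087, and did not pass. DDX21, an RNA helicase with the highest control level of the group, averaged 197.1 ± 14.3 CPM with ATF4 sgRNAs and 193.0 ± 27.5 CPM with Non-Targeting sgRNAs (SD).

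Among 6 abundant or regulatory nucleolar proteins, 3 rose with ATF4 sgRNAs and all 6 had log2 fold changes above 0. GPATCH4, a G-patch protein of the nucleolus, ranged from 46.6 to 64.2 CPM with ATF4 sgRNAs (median 52.3), against 37.0, 39.3, 34.3 and 29.9 CPM with Non-Targeting sgRNAs. The groups did not overlap, with a log2 fold change of 0.52 ± 0.12 and an edgeR adjusted p of 0.0049. GPATCH4 did not pass at no more than 10% mitochondrial UMIs. PA2G4, a growth-regulated RNA-binding protein also called EBP1, ranged from 244.9 to 274.4 CPM with ATF4 sgRNAs (median 256.9), against 218.1, 212.6, 223.2 and 184.0 CPM with Non-Targeting sgRNAs. It too was separated, with a log2 fold change of 0.25 ± 0.06 and an edgeR adjusted p of 0.0076. PA2G4 did not pass without Non-Targeting sgRNA 4, at no more than 10% mitochondrial UMIs or in G1-scored cells.

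MYBBP1A, a nucleolar protein that binds MYB, ranged from 15.9 to 24.6 CPM with ATF4 sgRNAs (median 17.7), against 10.9, 8.84, 18.4 and 7.71 CPM with Non-Targeting sgRNAs. The groups overlapped through Non-Targeting sgRNA 3, with a log2 fold change of 0.71 ± 0.18 and an edgeR adjusted p of 0.024. MYBBP1A did not pass without Non-Targeting sgRNA 1, 2 or 4 or without ATF4 sgRNA 4. It was also not called in DESeq2, with the stricter or the looser sgRNA rule or at no more than 10% mitochondrial UMIs. Nor was it called in G1-scored cells or against CTNNB1 sgRNAs. LYAR, a nucleolar zinc finger protein, had 0.36 ± 0.13 with an edgeR adjusted p of 0.15. NCL had 0.12 and NPM1 had 0.017, and neither passed.

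The 4 metabolic members supply polyamines and nucleotides to growing cells, and 2 of them rose with ATF4 sgRNAs. ODC1 ranged from 140.3 to 181.5 CPM with ATF4 sgRNAs (median 159.1), against 120.2, 117.3, 118.8 and 109.8 CPM with Non-Targeting sgRNAs. The groups did not overlap, the log2 fold change was 0.38 ± 0.08 and the edgeR adjusted p was 0.0015. ODC1 did not pass in G1-scored cells. NME1, a nucleoside diphosphate kinase, ranged from 284.8 to 340.1 CPM with ATF4 sgRNAs (median 304.3), against 237.5, 257.8, 288.9 and 236.9 CPM with Non-Targeting sgRNAs. The groups overlapped through Non-Targeting sgRNA 3, with a log2 fold change of 0.23 ± 0.06 and an edgeR adjusted p of 0.016. NME1 did not pass without Non-Targeting sgRNA 1, 2 or 4 or without ATF4 sgRNA 1. With the stricter sgRNA rule, at no more than 10% mitochondrial UMIs, in G1-scored cells or against CTNNB1 sgRNAs it did not pass either. SRM, spermidine synthase, and CAD, which starts pyrimidine synthesis, had log2 fold changes of 0.23 and 0.11.

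Some members overlap other annotated genes. NME1 overlaps the readthrough gene NME1-NME2, PPAN overlaps PPAN-P2RY11 and P2RY11, TAF1A overlaps the antisense gene TAF1A-AS1, MYBBP1A overlaps SPNS2 and BOP1 overlaps SCX. NME1-NME2 and PPAN-P2RY11 are not in the features table, so no count was given to them. How molecules of these readthrough genes were counted is not stated. No source used here states whether the count used strand, and the values of TAF1A, MYBBP1A and BOP1 are uncertain in that respect. The value of PPAN is uncertain because of its overlap with PPAN-P2RY11 and P2RY11.

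**Figure D3:**
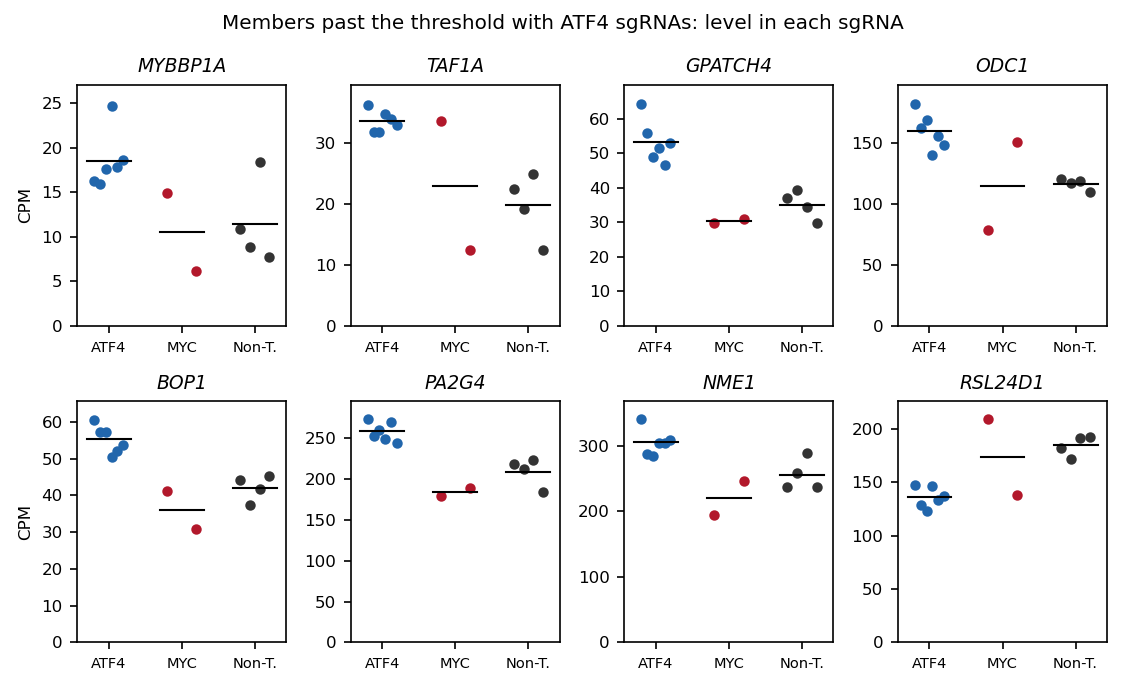
CPM of the 8 members that passed in ATF4 sgRNA cells, 1 point per sgRNA for ATF4, MYC and Non-Targeting (Non-T.), with a line at the mean of each group. For TAF1A, GPATCH4, ODC1, BOP1 and PA2G4 every ATF4 point lies above every Non-Targeting point, for RSL24D1 every one lies below, and for MYBBP1A and NME1 the groups overlap.

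Every ATF4 sgRNA was above every Non-Targeting sgRNA in 8 members, a pattern found in 2.38% of all genes tested, and every one was below in 1 member, against 1.73%. The 8 were TAF1A, DKC1, PES1, BOP1, PPAN, PA2G4, GPATCH4 and ODC1. Members with an E-box in the window had a median log2 fold change of 0.20 over 18 members with ATF4 sgRNAs, and the 18 members with a window and no E-box had 0.12. Of the members called, ODC1, MYBBP1A and NME1 held an E-box, and TAF1A, GPATCH4, PA2G4 and RSL24D1 did not. BOP1, also called, had no window.

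Further genes of the same pathway, 126 tested genes in all, were compared alongside. With ATF4 sgRNAs 2 rose and none fell in edgeR's test, against 0.605% and 1.15% of all genes tested. At an unadjusted p under 0.05, 23 were higher and 5 lower, against 6.0% and 6.45%. The log2 fold change was above 0 in 99, with a median of 0.10, against 0.0031 over all genes. ESF1, a small subunit processing factor, averaged 92.0 ± 6.24 CPM with ATF4 sgRNAs and 71.3 ± 3.79 CPM with Non-Targeting sgRNAs (SD), a log2 fold change of 0.31 with an edgeR adjusted p of 0.025. GTPBP4, a GTPase of large subunit assembly, averaged 156.6 ± 22.1 CPM with ATF4 sgRNAs and 122.7 ± 7.46 CPM with Non-Targeting sgRNAs (SD), a log2 fold change of 0.29 with an edgeR adjusted p of 0.027. Neither passed in G1-scored cells alone or with the stricter sgRNA rule.

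In cells with MYC sgRNAs, no member passed the test. Of the 43 members, 0 rose (0.164% of all genes did) and 0 fell (0.112% did) in edgeR's test, and DESeq2 also called 0. The log2 fold change was below 0 in 39 of 43, with a median of -0.24 against -0.044 over all genes. The direction of this difference, too, was known when the members were chosen. At an unadjusted p under 0.05, 6 members were lower and 0 higher, against 4.61% and 3.22% of all genes. The comparison rests on 2 sgRNAs with 23 and 45 cells, and its standard errors were wider than those of the ATF4 comparison, 0.19 against 0.080 for ODC1. The count of 0 does not show that the members did not differ.

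The 6 members with an unadjusted p under 0.05 were NPM1, FBL, NOP56, NOP58, RSL1D1 and WDR75. NPM1 had 2394 and 2472 CPM with MYC sgRNAs 2 and 4, against 2940, 2813, 2843 and 2485 CPM with Non-Targeting sgRNAs. Both MYC sgRNAs were below all 4 Non-Targeting sgRNAs, although MYC sgRNA 4 and Non-Targeting sgRNA 4 nearly met. The log2 fold change was -0.21 ± 0.06 and the edgeR adjusted p was 0.18, and it was called when Non-Targeting sgRNA 4 was left out. FBL, fibrillarin, the methyltransferase of box C/D snoRNPs, had 100.8 and 111.4 CPM with MYC sgRNAs, against 156.9, 139.0, 163.1 and 115.6 CPM with Non-Targeting sgRNAs, a log2 fold change of -0.47 ± 0.16 with an edgeR adjusted p of 0.34. Again Non-Targeting sgRNA 4 was the nearest to the MYC sgRNAs.

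NOP56 had 130.7 and 134.1 CPM with MYC sgRNAs, against 151.7 to 178.7 CPM with Non-Targeting sgRNAs. NOP58, its partner in box C/D snoRNPs, had 26.1 and 39.2 CPM with MYC sgRNAs, against 54.3 to 67.4 CPM with Non-Targeting sgRNAs. Both were separated between the groups, with log2 fold changes of -0.31 and -0.81 and edgeR adjusted p of 0.61 and 0.36. RSL1D1 had 119.5 and 156.8 CPM with MYC sgRNAs, against 171.5 to 205.7 CPM with Non-Targeting sgRNAs, a log2 fold change of -0.46 with an edgeR adjusted p of 0.27.

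Several low members were carried by very few UMIs. WDR75, a small subunit processing factor, had 0 and 2 UMIs with MYC sgRNAs 2 and 4, which gave a pooled level of 2.66 CPM, against 15.9 CPM from 142 UMIs with Non-Targeting sgRNAs. The ratio was 0.168, with an exact interval of 0.0201 to 0.617. NOP2, an rRNA methyltransferase, had 7 UMIs and a ratio of 0.518 (0.205 to 1.09), and POLR1B had 4 UMIs and a ratio of 0.512 (0.137 to 1.36). Intervals cover counting error only, and those of NOP2 and POLR1B include 1. The 3 members with the largest positive values among those of at least 10 CPM in Non-Targeting cells were WDR12 at 0.30, RRP9 at 0.20 and ODC1 at 0.059. ODC1 differed between the MYC sgRNAs, 78.4 CPM against 150.6 CPM.

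Both MYC sgRNAs were below all Non-Targeting sgRNAs in 8 members, a share of 18.6%, which is to be read against 14.8% of all genes tested, and both were above in 0 members, against 11.6%. GNL3 and POLR1B joined the 6 members named above. Members with and without an E-box in the window had the same median log2 fold change to 2 decimals, -0.21 each over 18 members. Among the 126 other genes of the pathway 0 passed in edgeR's test, against 0.164% of all genes higher and 0.112% lower. At an unadjusted p under 0.05, 3 were higher and 8 lower, against 3.22% and 4.61% of all genes. Of the 126, 86 were below 0 with a median of -0.17. Of all 11570 genes tested, 6306 were below 0 with a median of -0.044.

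The ATF4 and MYC sgRNA cells were also compared directly. Of 43 members, 3 were higher with ATF4 sgRNAs, against 0.363% of all genes, and 0 were lower, against 0.882%. NPM1 ranged from 2789 to 3016 CPM with ATF4 sgRNAs (median 2847), against 2394 and 2472 CPM with MYC sgRNAs, a log2 fold change of 0.23 ± 0.06 with an edgeR adjusted p of 0.029. PA2G4 ranged from 244.9 to 274.4 CPM, against 179.3 and 189.8 CPM with MYC sgRNAs, a log2 fold change of 0.46 ± 0.13 with an edgeR adjusted p of 0.043. FBL ranged from 151.1 to 188.1 CPM (median 156.7), against 100.8 and 111.4 CPM with MYC sgRNAs, a log2 fold change of 0.58 ± 0.16 with an edgeR adjusted p of 0.048. None of the 3 overlapped between the groups.

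The members as a list had a median log2 fold change of 0.45 in this comparison, against 0.045 over all genes, with 39 of 43 above 0. All 6 ATF4 sgRNAs were above both MYC sgRNAs in 22 members, against 14.0% of all genes. The members were chosen with the directions for ATF4 and MYC sgRNAs known, so these values are not independent of that choice. The calls were not stable: 0 members passed with DESeq2 size factors in edgeR, with the stricter sgRNA rule or in G1-scored cells, and 0 passed without MYC sgRNA 2, MYC sgRNA 4, ATF4 sgRNA 1 or ATF4 sgRNA 5. With ATF4 sgRNA 3 or ATF4 sgRNA 6 left out 1 passed, DESeq2's own test called 4, and the looser sgRNA rule gave 6.

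With sgRNAs of the other targets no member passed against Non-Targeting in edgeR's or DESeq2's test. For PGAM1 the shares of all genes called were 0.0864% higher and 0.303% lower, for CTNNB1 0.0% and 0.00864%, for JUN 0.00864% and 0.0%, and for CTCF 0.0173% and 0.00864%. At an unadjusted p under 0.05 there were 3 members higher and 3 lower with PGAM1 sgRNAs, against 4.36% of all genes in each direction. There were 4 higher and 0 lower with CTNNB1 sgRNAs, against 2.04% and 2.26%, 1 and 1 with JUN sgRNAs, against 2.45% and 2.18%, and 1 and 2 with CTCF sgRNAs, against 3.38% and 2.85%. TAF1A was among the higher ones for PGAM1, CTNNB1 and JUN. The median log2 fold changes were -0.079, 0.064, 0.036 and -0.020 in that order of targets.

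The summed level of the members without NPM1 put the 7 groups side by side. It was 4034, 3730, 3529, 3791, 3746 and 3762 CPM with ATF4 sgRNAs 1 to 6, and 2768 and 3043 CPM with MYC sgRNAs 2 and 4, against 3416, 3405, 3556 and 3029 CPM with Non-Targeting sgRNAs 1 to 4. Of the ATF4 sgRNAs, 5 of 6 were above every Non-Targeting sgRNA and sgRNA 3 was within their range. Of the MYC sgRNAs, sgRNA 2 was below every Non-Targeting sgRNA and sgRNA 4 was just above Non-Targeting sgRNA 4, which stood apart from the other 3 and has 77 cells. MYC sgRNAs 1 and 3, with 10 and 16 cells and outside the tests, had 3166 and 3039 CPM, with exact Poisson intervals of 2839 to 3521 and 2791 to 3303 CPM.

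Means per group were 3765 ± 162 CPM for ATF4, 2906 ± 195 CPM for MYC, 3350 ± 150 CPM for PGAM1, 3518 ± 77.3 CPM for CTNNB1, 3427 ± 152 CPM for JUN and 3303 ± 282 CPM for CTCF, against 3351 ± 226 CPM for Non-Targeting (SD over sgRNAs). In order from the highest, ATF4 was followed by CTNNB1, JUN, Non-Targeting, PGAM1, CTCF and MYC, and the groups from CTNNB1 to CTCF overlapped in their sgRNAs. ATF4 overlapped through its sgRNA 3 with CTNNB1, JUN, CTCF and Non-Targeting and not with PGAM1. MYC overlapped through its sgRNA 4 with CTCF and Non-Targeting, and both its sgRNAs lay below all sgRNAs of CTNNB1, JUN and PGAM1. CTCF sgRNA 3 was low for its group, at 2803 CPM with 48 cells, against 3215 to 3590 CPM for the 5 others. That sgRNA also had the lowest CTCF transcript level of the 6, 20.8 CPM against 33.0 to 41.9 CPM, and a MYC transcript level of 35.2 CPM, against 67.1 to 84.0 CPM for the 5 others. Whether these values are linked was not tested.

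**Figure D4:**
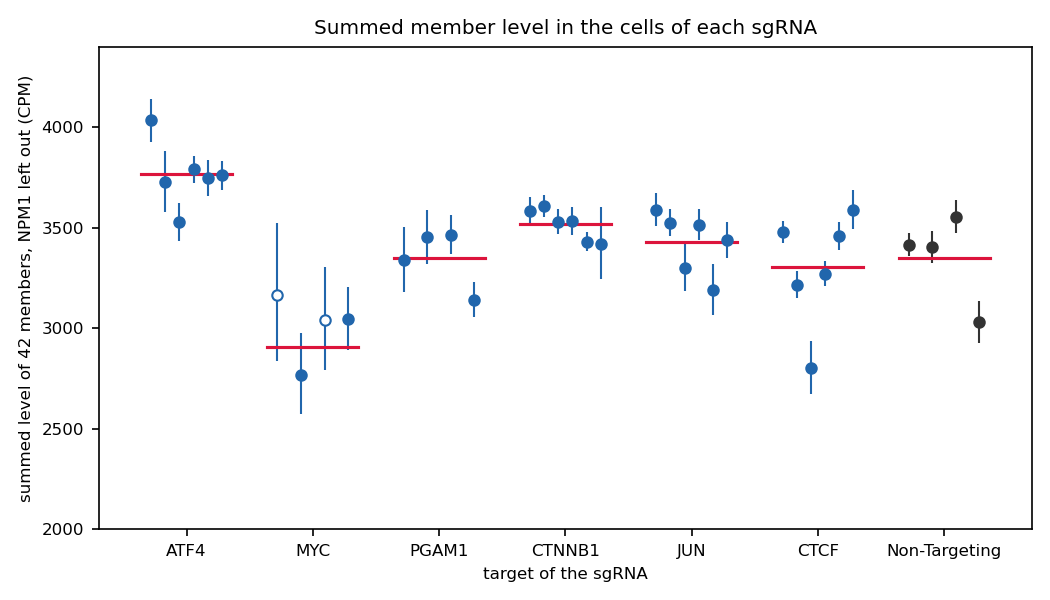
Summed CPM of 42 members without NPM1 for each sgRNA, by target, with exact Poisson 95% intervals as bars and group means as lines. The vertical axis does not start at 0, and open points are the MYC sgRNAs with 10 and 16 cells, which are outside the tests and the mean.

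Cell cycle and depth moved with the level of the members. Over all kept cells the summed level without NPM1 was 3316 CPM in G1-scored, 4118 CPM in S-scored and 3450 CPM in G2/M-scored cells, from gene scores for these phases. No member was taken out of the gene lists before scoring. The phase values of any member in those lists are partly set by the scoring. The ratio of S-scored to G1-scored cells was largest for LYAR at 1.73, NOLC1 at 1.57 and CAD at 1.54, and was 0.91 for RSL24D1. GNL3 was the member with the lowest ratio of G2/M-scored to G1-scored cells, 0.72. The lowest, middle and highest tercile of cells by depth had 3282, 3566 and 3558 CPM.

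The shares of phases were close in ATF4 and Non-Targeting cells: 15.1% and 14.4% were S-scored and 28.9% and 28.6% were G2/M-scored, with median depths of 12564 and 12110.5 UMIs. MYC cells, 94 over all 4 sgRNAs, differed more: 20.2% were G2/M-scored, against 28.6% of Non-Targeting cells, 13.8% were S-scored, against 14.4%, and the median depth was 10275.5 UMIs, against 12110.5 UMIs. Within G1-scored cells the summed level was 3626 CPM for ATF4 and 2768 CPM for MYC, against 3245 CPM for Non-Targeting. Within S-scored cells it was 4436 CPM for ATF4 and 3604 CPM for MYC, against 4126 CPM for Non-Targeting, and within G2/M-scored cells 3634 and 3044 CPM, against 3271 CPM. The order was thus the same in each phase, from cells pooled over sgRNAs and with no test. The MYC values rest on 13 S-scored and 19 G2/M-scored cells of all 4 MYC sgRNAs. Their exact Poisson intervals were 3336 to 3887 CPM (S) and 2833 to 3267 CPM (G2/M). The G2/M interval overlapped that of Non-Targeting cells, 3206 to 3338 CPM.

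By depth the difference was less even. In the lowest tercile, ATF4 cells had 3302 CPM and MYC cells 2838 CPM, against 3073 CPM in Non-Targeting cells. In the middle tercile they had 3885 and 2729 CPM, against 3476 CPM. In the highest tercile ATF4 cells had 3859 CPM and the 14 MYC cells had 3612 CPM, with an exact Poisson interval of 3376 to 3859 CPM, against 3525 CPM in Non-Targeting cells. The lower level in MYC cells was thus not seen in its deepest cells, which are few.

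**Figure D5:**
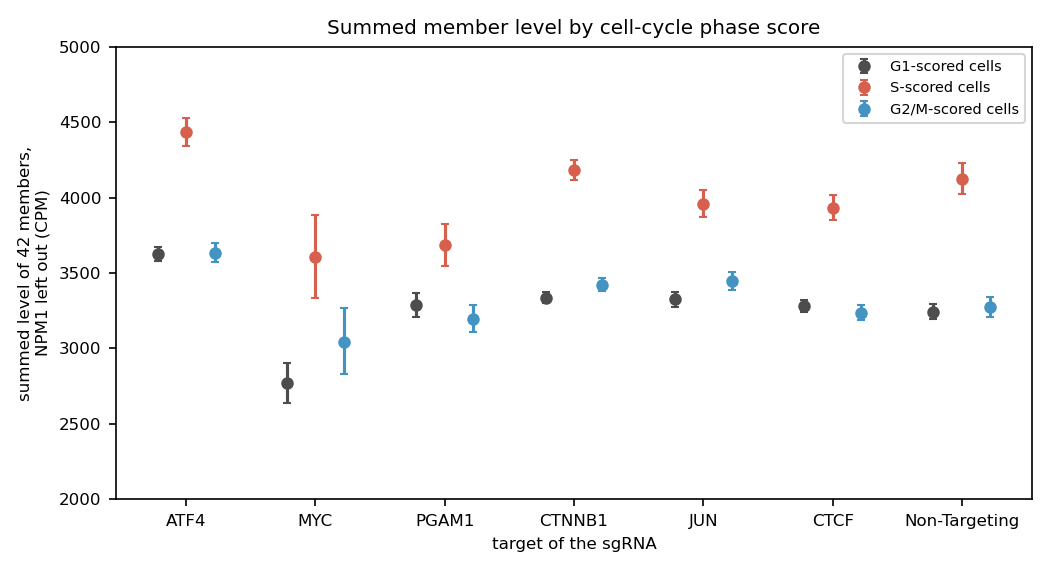
Summed CPM of 42 members without NPM1 in G1-scored, S-scored and G2/M-scored cells of each target, with exact Poisson 95% intervals, which cover counting error only. The vertical axis does not start at 0, and in every target the S-scored cells are highest.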

How the data were processed

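The deposited matrix holds the authors' raw UMI counts per gene or sgRNA and cell barcode. The file headers name Cell Ranger 6.1.2 and the submitters' processing notes name hg38, and no source used here states the other settings. It has 10847 barcodes, 136071789 gene UMIs and 158909 sgRNA UMIs. Cells were kept from 1000 UMIs and 500 genes upward, with mitochondrial UMIs at no more than 20%. A cell was assigned to an sgRNA with at least 5 UMIs and at least 80% of its sgRNA UMIs. This also removed cells in which no sgRNA reached that share, and cells with a minor second sgRNA stayed in. No doublet caller was run. Counts were summed per sgRNA (at least 20 cells) and tested with edgeR 4.0.16 (quasi-likelihood, TMM, filterByExpr, all 7 groups in 1 fit, Benjamini-Hochberg over 11570 genes, threshold 0.05), after a check on simulated data. The SE of an edgeR log2 fold change is its absolute value divided by the square root of the F statistic. DESeq2 1.42.0 was an alternative. Phases came from scanpy 1.11.5 with gene lists of Seurat 5.3.0. Named genes were the targets, members past the threshold, the highest member per role, and the 3 most positive and most negative members not past it with at least 10 CPM in Non-Targeting cells. The members and lists were chosen with earlier results of these data known. Intervals are at the 95% level.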

Additional observations from a re-analysis of the deposited data

Results flagged for a closer look

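In 56 groups of 4 to 6 sgRNAs the highest or lowest value was compared with the others by Dixon's ratio, and chance flags about 1 in 20 such groups. In 4 of them 1 sgRNA stood apart. FBL had 188.1 CPM with ATF4 sgRNA 1, against 151.1 to 163.1 CPM with the other ATF4 sgRNAs. MYBBP1A had 24.6 CPM with ATF4 sgRNA 4, against 15.9 to 18.6 CPM with the others. DDX21 had 152.2 CPM with Non-Targeting sgRNA 4, against 201.8 to 211.4 CPM with the other Non-Targeting sgRNAs. The MYC transcript had 63.1 CPM with Non-Targeting sgRNA 1, against 71.3 to 72.6 CPM with the others.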

How the results depend on the processing

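The median log2 fold change of the members kept its sign in ATF4 cells and in MYC cells under every alternative run. With ATF4 sgRNAs 8 members were called, and 5 with the stricter sgRNA rule, 4 at no more than 10% mitochondrial UMIs, 2 in G1-scored cells and 4 against CTNNB1 sgRNAs, and 5 to 8 with 1 sgRNA left out. DESeq2 called 7, of which 6 were shared. The other alternatives called 8 to 10. With MYC sgRNAs 0 were called, and 2 with the looser sgRNA rule, 1 with 5000 to 20000 UMIs per cell and 1 against CTNNB1 sgRNAs, and 0 to 1 with 1 sgRNA left out. The MYC median of -0.24 became -0.33 against CTNNB1 sgRNAs and ran from -0.33 to -0.18 with 1 sgRNA left out. For PGAM1 the looser rule called 1, and the JUN median became -0.025 against CTNNB1 sgRNAs. The CTCF median of -0.020 became 0.0025 with the stricter rule and 0.011 at no more than 10% mitochondrial UMIs, and ran from -0.049 to 0.0044 with 1 sgRNA left out. Between ATF4 and MYC 3 were called, and 0 with DESeq2 size factors, in G1-scored cells and with the stricter rule, 1 in the depth window, 5 with no filter on low counts, 6 with the looser rule and 5 with the 2 groups fitted alone, and 0 to 3 with 1 sgRNA left out. Of the other pathway genes 2 were called with ATF4 sgRNAs, and 0 in G1-scored cells, at no more than 10% mitochondrial UMIs and with the stricter rule, 4 with the looser rule, 1 in the depth window and 1 against CTNNB1 sgRNAs, and 0 to 3 with 1 sgRNA left out. With MYC sgRNAs the looser rule called 1. Values of single genes that turned sign were those of POLR1B with ATF4 sgRNAs (0.087 stricter, 0.044 looser, 0.035 in G1, 0.036 in the depth window), of ODC1 with MYC sgRNAs (-0.033 against CTNNB1, -0.020 with sgRNAs of at least 10 cells, an alternative chosen after seeing the data), and of WDR12 with MYC sgRNAs (-0.039 with the looser rule). Without MYC sgRNA 4, ODC1, RRP9 and WDR12 turned too, over ranges of -0.64 to 0.35, -0.067 to 0.32 and -0.18 to 0.51. The causes were not tested. At no more than 10% mitochondrial UMIs no MYC sgRNA had 20 cells, so that comparison has no value there, and in G1-scored cells and with the stricter rule 1 MYC sgRNA remained, assumed to vary like the other groups. No paired analysis was possible because the numbers of sgRNAs against different targets do not pair them, and each library is 1 sample.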
